A study of Mus musculus with 14 samples.

Results

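Tnf encodes tumor necrosis factor (TNF), and Tnfrsf1a and Tnfrsf1b encode the receptors that bind it, known as TNFR1 and TNFR2. The 3 genes were taken by their symbols from the 12924 genes measured, with the gene identifiers 21926 (Tnf), 21937 (Tnfrsf1a) and 21938 (Tnfrsf1b). TNF is made as a membrane-bound trimer, mostly by activated macrophages, and is released when the protease ADAM17 cuts it. Tnfrsf1a is found on most cell types, carries a death domain, and can signal through NF-kB and MAP kinases to inflammatory gene expression or through caspases and RIP kinases to cell death. Tnfrsf1b has no death domain, is found mainly on blood and endothelial cells, responds best to membrane-bound TNF, and recruits TRAF2 directly.

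RNA was sequenced from mice of the strain C57BL/6 that carried a flank tumor grown for 14 days from cells of Lewis lung carcinoma (LLC), a lung cancer line of the mouse. The hosts were wild type (WT) or p110g-/-, which lack p110 gamma, the catalytic subunit of the kinase PI3K gamma encoded by Pik3cg. The LLC cells were placed into both kinds of host, so the deletion is one of the host's cells, and no source used here gives the age of the mice. Libraries came from 30.0 mg of whole tumor (3 WT and 3 p110g-/-) or from 1000000 sorted CD11b+Gr1- cells, labelled tumor-associated macrophages (TAM, 4 WT and 4 p110g-/-). The labels do not say that the libraries are from separate animals, so a p-value here reflects only the variation among these libraries, which could be technical.

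Levels are normalized counts, the whole numbers the authors deposited after scaling each library, in a table for TAM and a table for whole tumors. Column totals ranged from 33248294 to 38153438 in TAM and from 25883561 to 27586429 in whole tumors, and an estimated 19.7 to 44.6 M reads lay behind a library, so that 3 reads were worth 1.79 to 5.81 normalized counts (counting error only). The targeted gene Pik3cg was at 2748 to 4477 in WT and 1210 to 2211 in p110g-/- TAM, and at 487 to 616 in WT and 242 to 417 in p110g-/- tumors, lower but not 0 in the p110g-/- libraries. The tables do not show which part of that gene the reads came from. All 9 macrophage markers measured had a higher mean share of the normalized counts in TAM than in tumors in both genotypes (Csf1r 5.84 times and Cd68 3.79 times in WT), and the T cell markers summed to 74 to 223 normalized counts in TAM. The TAM libraries also differed by their number. Mitochondrial genes took 2.51% to 3.21% of the normalized counts in libraries 1 and 2 and 7.7% to 14.42% in libraries 3 and 4. Fibroblast markers summed to 2406, 25214, 46456 and 51956 in WT TAM 1 to 4 and to 689, 8491, 39768 and 29264 in p110g-/- TAM 1 to 4. In bulk RNA, fewer cells of a type and less RNA per cell cannot be told apart.

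The promoters are shown because the levels of the receptors correlated across libraries more closely than those of Tnf did with either. The part of these sequences in the levels was not tested. Each run holds the 250 bases before the RefSeq start site (GRCm38.p6, coordinates of that build and not of the authors' mm9), written 5′ to 3′ in the direction of the gene. Tnf lies at chr17:35202008-35202257 on the minus strand, Tnfrsf1a at chr6:125349473-125349722 on the plus strand and Tnfrsf1b at chr4:145246871-145247120 on the minus strand. Capitals mark a TATA box (TATAAA) or a GC box (GGGCGG, or its reverse complement).
Tnf: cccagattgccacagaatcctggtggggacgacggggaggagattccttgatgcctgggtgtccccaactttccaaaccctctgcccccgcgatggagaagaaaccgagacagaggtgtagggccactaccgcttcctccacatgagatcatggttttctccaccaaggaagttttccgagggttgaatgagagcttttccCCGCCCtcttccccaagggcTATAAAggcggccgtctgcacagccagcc
Tnfrsf1a: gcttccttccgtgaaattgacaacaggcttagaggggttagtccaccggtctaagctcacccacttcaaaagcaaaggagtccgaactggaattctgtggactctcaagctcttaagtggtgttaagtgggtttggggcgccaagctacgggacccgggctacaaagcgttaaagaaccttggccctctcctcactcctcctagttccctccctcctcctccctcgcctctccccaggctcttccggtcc
Tnfrsf1b: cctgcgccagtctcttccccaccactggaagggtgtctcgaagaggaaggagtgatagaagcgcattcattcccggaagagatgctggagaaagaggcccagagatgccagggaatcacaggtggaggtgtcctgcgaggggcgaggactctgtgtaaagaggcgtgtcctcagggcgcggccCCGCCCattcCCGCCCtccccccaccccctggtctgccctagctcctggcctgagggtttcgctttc
The Tnf window held a TATA box at positions -29 to -24 from the start site and a GC box at -49 to -44. The Tnfrsf1b window held 2 GC boxes, at -67 to -62 and at -57 to -52, and no TATA box. The Tnfrsf1a window held neither. Among 32851 mouse promoter windows of this length, searched on both strands, 12.4% held TATAAA and 32.7% held GGGCGG. An AP-1 site (TGANTCA, in 6.75% of the windows) and the NF-kB consensus (GGGRNWYYCC, in 3.9%) were searched on both strands too, and these letters were not in the 3 windows. In them N is any base, R is A or G, W is A or T and Y is C or T. Sites with other letters, or beyond the 250 bases, were not searched, so such sites may exist in these genes. GC made up 57.6% of the Tnf window, 55.6% of the Tnfrsf1a window and 62.8% of the Tnfrsf1b window.

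The messages also differ in a sequence linked to message decay, and how long they last was not measured. Tristetraprolin, the product of Zfp36, binds AU-rich elements in 3′ untranslated regions and speeds the decay of the message, and the Tnf message is its best known target. The stretch of the Tnf 3′ untranslated region with the densest such element is given here, starting 437 bases after the stop codon of the longest coding transcript (GENCODE M21), with each ATTTA pentamer in capitals.
Tnf AU-rich element: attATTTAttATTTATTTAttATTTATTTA
These 30 bases held 5 pentamers and 4 overlapping copies of the nonamer TTATTTATT. The whole region of 764 bases held 8 pentamers and 5 nonamers in Tnf. That of Tnfrsf1a (490 bases) held 0 of either, and that of Tnfrsf1b (2324 bases) held 2 pentamers and 0 nonamers. The nonamer was found in 1015 of 12297 genes (8.25%).

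In TAM, both receptor messages were at higher normalized counts than Tnf in every library. Tnf was at 1398, 834, 1015 and 906 normalized counts in WT TAM 1 to 4 and at 1886, 1279, 940 and 1079 in p110g-/- TAM 1 to 4. Library 1 was the highest of its genotype in both groups, and the groups overlapped. Tnfrsf1a was at 9413, 8072, 6628 and 6865 in WT TAM and at 9540, 8681, 7322 and 7696 in p110g-/- TAM. Tnfrsf1b was at 14724, 12001, 8770 and 7576 in WT TAM and at 13278, 10548, 7256 and 8229 in p110g-/- TAM. Libraries 1 and 2 were above libraries 3 and 4 for both receptors in both genotypes, and their mitochondrial share was lower. Their sums of macrophage and monocyte markers were also higher, and those of fibroblast markers lower. The monocyte markers, of which Ccr2 made up most, summed to 80428, 42626, 38116 and 35330 in WT TAM 1 to 4. In p110g-/- TAM 1 to 4 they summed to 79004, 43781, 26812 and 29251. The part of these differences in the receptor levels was not tested.

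In whole tumors, which hold carcinoma, stromal and immune cells, Tnf was at 629, 1224 and 1111 normalized counts in WT tumors 1 to 3 and at 856, 632 and 721 in p110g-/- tumors 1 to 3. WT tumor 1 was the lowest of all 6 and stood apart from the other WT tumors, which were above all p110g-/- tumors. Tnfrsf1a was at 2949, 3153 and 3288 in WT tumors and at 3696, 3194 and 3839 in p110g-/- tumors. Tnfrsf1b was at 1942, 2435 and 2542 in WT tumors and at 2544, 2368 and 2868 in p110g-/- tumors. For each receptor, p110g-/- tumors 1 and 3 were above every WT tumor and p110g-/- tumor 2 lay among them.

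**Figure D1:**
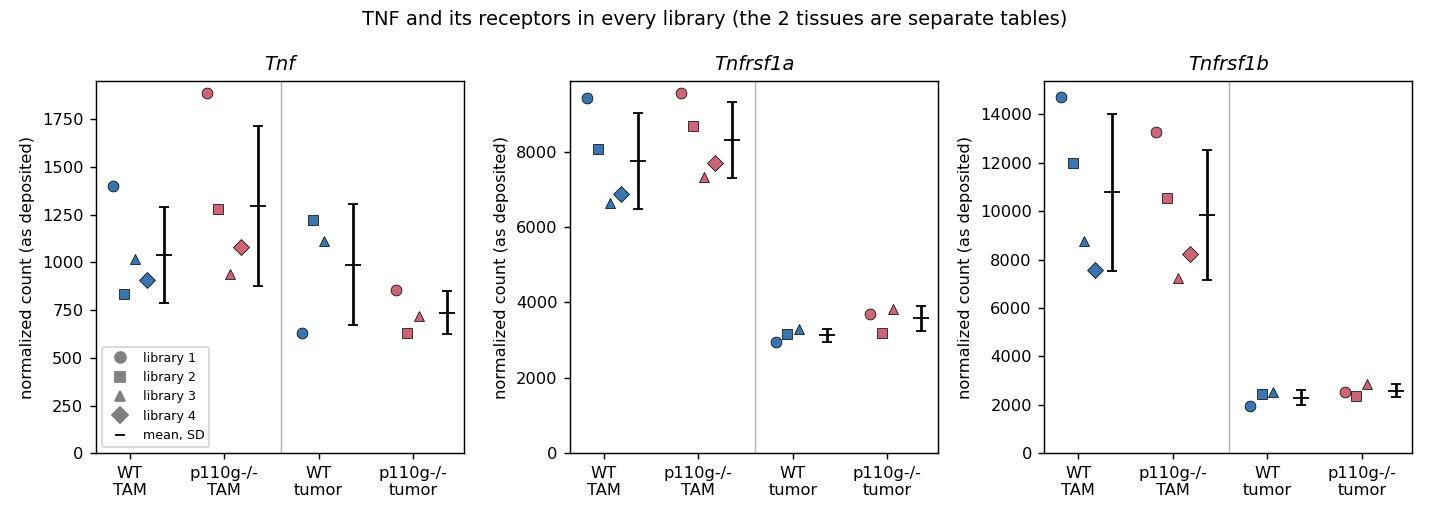
Normalized counts of Tnf, Tnfrsf1a and Tnfrsf1b (y axis from 0) in each of the 14 libraries, by genotype and tissue, with the marker shape giving the library number and the bars the mean and SD of each group. Both receptors lie higher in TAM (Tnfrsf1b from 7256 to 14724) than in whole tumors (1942 to 2868), while Tnf spans 834 to 1886 in TAM and 629 to 1224 in tumors, and the genotypes overlap in every panel.

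The tables may have been scaled separately, so TAM and tumors were compared as counts per 1000000 of the column total (CPM), as a description with no test. The mean CPM of Tnf was 0.85 times as high in TAM as in tumors in WT (30.7 ± 7.04, SD, n = 4, against 36.1 ± 11.5, n = 3) and 1.35 times in p110g-/- (37.3 ± 13.5 against 27.7 ± 3.54), and its libraries overlapped between the tissues. The CPM of Tnfrsf1a was 2.01 times as high in TAM in WT (229.3 ± 35.5 against 114.3 ± 5.65) and 1.77 times in p110g-/- (238.4 ± 38.4 against 134.7 ± 10.8). That of Tnfrsf1b was 3.78 times as high in WT TAM (318.7 ± 92.9 against 84.2 ± 11.4) and 2.9 times in p110g-/- TAM (283.0 ± 88.2 against 97.7 ± 9.15). Both receptors, but not Tnf, were higher in CPM in all 8 TAM libraries than in all 6 tumors, as were 18.2% of 12486 genes (42.2% were lower in all 8). The median gene was at 0.85 times its tumor level in WT TAM and 0.795 times in p110g-/- TAM. The 9 macrophage markers ran from 1.85 times (Mertk) to 11.06 times (Fcgr1) in WT, so Tnfrsf1a was near the low end of that range and Tnf below it.

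Levels of different genes were compared as CPM per kilobase of the longest coding transcript (1639 bases for Tnf, 2156 for Tnfrsf1a and 3818 for Tnfrsf1b). Which transcripts of a gene the libraries held was not known, so the order of genes on this scale rests on these lengths. On this scale Tnfrsf1a was at 106.4 ± 16.5 in WT TAM, 110.6 ± 17.8 in p110g-/- TAM, 53.0 ± 2.62 in WT tumors and 62.5 ± 5.0 in p110g-/- tumors (SD, n = 4 for TAM and 3 for tumors). Tnfrsf1b was at 83.5 ± 24.3, 74.1 ± 23.1, 22.1 ± 2.98 and 25.6 ± 2.4 in the same order. Tnf was at 18.7 ± 4.3, 22.8 ± 8.21, 22.0 ± 7.02 and 16.9 ± 2.16. The libraries of the receptors overlapped in each TAM group. In WT tumors those of Tnf and Tnfrsf1b overlapped, in p110g-/- tumors Tnf was below Tnfrsf1b in every library, and Tnfrsf1a was above both in every tumor.

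Within the TNF superfamily, Tnfrsf1a had the highest mean level per kilobase of 23 receptors in all 4 groups. Tnfrsf1b was next in TAM, followed by Ltbr, the lymphotoxin beta receptor (52.9 in WT and 48.3 in p110g-/- TAM). In tumors Tnfrsf1b was 4th in both genotypes, below Tnfrsf12a, the receptor of TWEAK (51.1 in WT and 47.6 in p110g-/-), and Ltbr (34.0 and 34.7). Tnfrsf12a in TAM was at 21.7 in WT and 21.8 in p110g-/-, well under both TNF receptors. Among 15 ligands Tnf was 4th in both TAM groups, after Tnfsf12, which encodes TWEAK (47.4 in WT and 42.9 in p110g-/-), Tnfsf13, which encodes APRIL (31.8 and 26.3), and Tnfsf9, the ligand of 4-1BB (28.2 and 28.4). In tumors Tnf was 1st in WT and 3rd in p110g-/-, beside Tnfsf9 (19.0 in WT and 20.8 in p110g-/-) and Tnfsf12 (18.7 and 17.6). These differences were within the SD of Tnf, except that Tnfsf9 was above it in p110g-/- tumors. Lta, which encodes lymphotoxin alpha, the other ligand of both receptors, was at no more than 0.38 in any library.

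**Figure D2:**
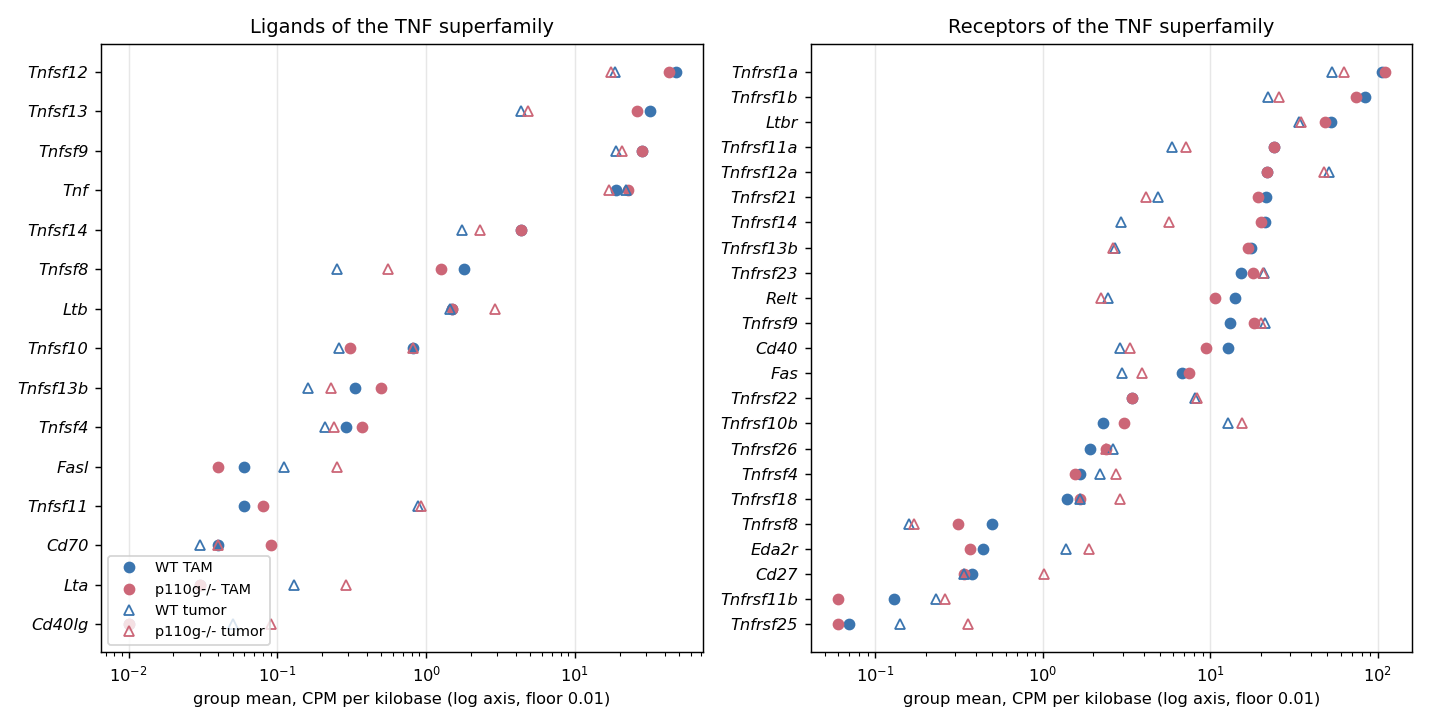
Group means of 15 ligands (left) and 23 receptors (right) of the TNF superfamily, as CPM per kilobase, on a log axis with values under 0.01 drawn at 0.01; filled circles are TAM and open triangles whole tumors. Tnfrsf1a leads the receptors in all 4 groups (53.0 to 110.6), Tnfrsf1b is at 83.5 in WT TAM and 22.1 in WT tumors, and Tnf is between 16.9 and 22.8.

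The ratio of the receptors within a library does not depend on how the library was scaled. Tnfrsf1b over Tnfrsf1a, in normalized counts, was 1.56, 1.49, 1.32 and 1.1 in WT TAM 1 to 4 and 1.39, 1.22, 0.991 and 1.07 in p110g-/- TAM 1 to 4. In WT tumors 1 to 3 it was 0.659, 0.772 and 0.773, and p110g-/- tumors had 0.688, 0.741 and 0.747. All 8 TAM libraries were thus above all 6 tumors, and the genotypes overlapped in both tissues. Per length of the longest coding transcript, the ratio was 0.56 to 0.883 in TAM and 0.372 to 0.437 in tumors. On that scale the Tnfrsf1a level was the higher one in every library, which in TAM rests on the lengths used.

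Tnf over Tnfrsf1b was 0.095, 0.069, 0.116 and 0.12 in WT TAM and 0.142, 0.121, 0.13 and 0.131 in p110g-/- TAM. All 4 p110g-/- libraries were above all 4 WT libraries, the closest pair being WT TAM 4 (0.12) and p110g-/- TAM 2 (0.121). This ratio was singled out after its values were seen, and no test is given. WT tumors had 0.324, 0.503 and 0.437 for it and p110g-/- tumors 0.336, 0.267 and 0.251, and these groups overlapped. Tnf over Tnfrsf1a overlapped between the genotypes in both tissues (0.103 to 0.153 in WT and 0.128 to 0.198 in p110g-/- TAM, 0.213 to 0.388 in WT and 0.188 to 0.232 in p110g-/- tumors).

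**Figure D3:**
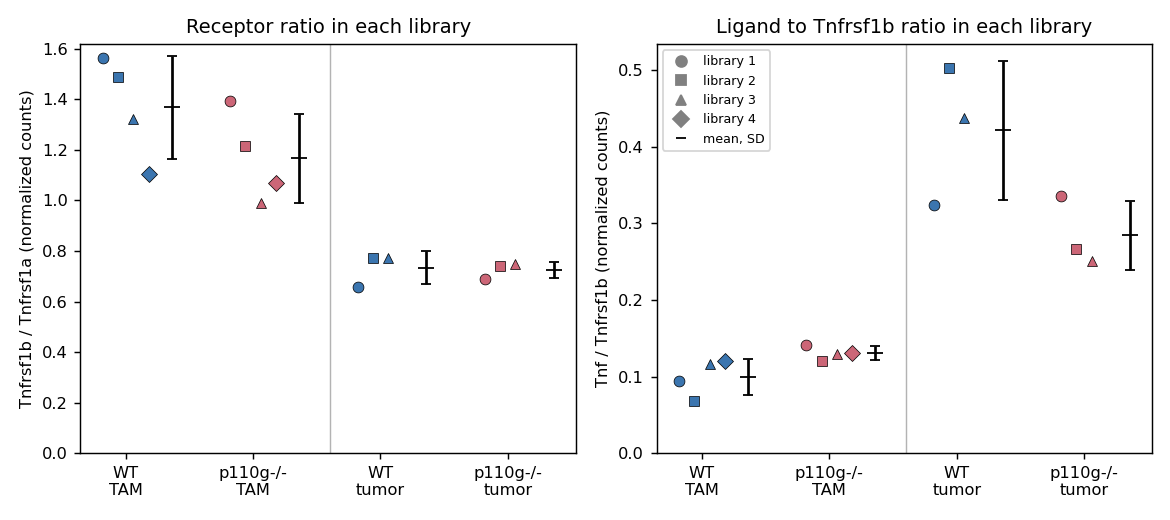
Ratio of normalized counts of Tnfrsf1b to Tnfrsf1a (left) and of Tnf to Tnfrsf1b (right) in each library, both axes from 0, with mean and SD by group. The receptor ratio is 0.991 to 1.56 in TAM and 0.659 to 0.773 in whole tumors, and the ligand ratio is 0.069 to 0.142 in TAM and 0.251 to 0.503 in whole tumors.

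The genotype comparison in TAM asks whether loss of PI3K gamma in the host alters these messages in the sorted macrophages. None of the 3 genes passed (limma on log2(normalized count + 1), adjusted p below 0.05 after Benjamini-Hochberg adjustment over 12475 genes), while 14 genes, 0.112%, passed in all. Tnf had a mean of 1038 ± 251 normalized counts in WT and 1296.0 ± 417 in p110g-/- TAM (SD, n = 4 each), a log2 difference of 0.30 (SE 0.24, limma adjusted p 0.999). The 95% interval of that difference ran from -0.25 to 0.85, so folds from 0.841 to 1.8 lay within it, and the exact two-sided permutation test gave p = 0.314 (the smallest possible is 0.0286). Tnfrsf1a had 7744.5 ± 1279 in WT and 8309.8 ± 1001 in p110g-/- TAM, a log2 difference of 0.11 (SE 0.14, limma adjusted p 0.999, folds from 0.871 to 1.34 within the interval, exact permutation p = 0.457). Tnfrsf1b had 10768 ± 3233 and 9828 ± 2683, a log2 difference of -0.12 (SE 0.25, limma adjusted p 0.999, folds from 0.616 to 1.38 within the interval, exact permutation p = 0.657). The sign of the Tnfrsf1b difference rested on single libraries: it was 0.04 without WT TAM 1 and 0.01 without p110g-/- TAM 3. No member's libraries were separated by genotype, against 4.30% of genes whose libraries were.

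Same-numbered TAM libraries were alike across genotypes, as were libraries 3 and 4 across numbers, and differences within a number were read too. Tnf differed by 0.43, 0.62, -0.11 and 0.25 (log2, p110g-/- minus WT, numbers 1 to 4). Its difference was 0.52 over libraries 1 and 2, where the mitochondrial share was low, and 0.07 over libraries 3 and 4, where it was high. Tnfrsf1a differed by 0.02, 0.10, 0.14 and 0.16, above 0 in 4 of 4 pairs. Tnfrsf1b differed by -0.15, -0.19, -0.27 and 0.12, below 0 in 3 of 4. Both signs of number 4 turned on the scaling. In CPM, Tnfrsf1a was at 202.2 in WT TAM 4 and 201.7 in p110g-/- TAM 4, and Tnfrsf1b at 223.2 and 215.7. The share of all genes with such counts of signs was not taken. With the number as a block, limma gave adjusted p of 0.25 for Tnf, 0.331 for Tnfrsf1a and 0.439 for Tnfrsf1b, so none of the 3 passed, while 312 genes (2.50%) did. An unadjusted p under 0.05 was reached by Tnf with the block, and by none of the 3 without it. Of all 12475 genes, 2327 reached it with the block and 732 without (limma).

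In whole tumors none of the 3 genes passed either, where 553 of 12717 genes did (4.35%). Tnf had a mean of 988.0 ± 316.0 normalized counts in WT and 736 ± 113 in p110g-/- tumors (SD, n = 3 each), a log2 difference of -0.38 (SE 0.24, limma adjusted p 0.355, folds from 0.525 to 1.13 within the interval). Without WT tumor 1 the difference was -0.67 (limma adjusted p 0.0767), and without WT tumor 2 it was -0.19. Tnfrsf1a had 3130.0 ± 171 in WT and 3576 ± 339 in p110g-/- tumors, a log2 difference of 0.19 (SE 0.08, limma adjusted p 0.174, the only one of the 3 with an unadjusted p under 0.05, folds from 1.01 to 1.29 within the interval). In all, 3332 of the 12717 genes had an unadjusted p under 0.05 (limma). Tnfrsf1b had 2306 ± 320.0 and 2593 ± 254, a log2 difference of 0.17 (SE 0.11, limma adjusted p 0.359, folds from 0.946 to 1.35 within the interval). The exact permutation p was 0.4 for Tnf, 0.2 for Tnfrsf1a and 0.4 for Tnfrsf1b, in a design that cannot go below 0.1. No member's libraries were separated by genotype here, where those of 31.0% of genes were.

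The genotype difference of Tnf was above 0 in TAM and below 0 in tumors. Over 14 libraries, an interaction term of genotype and tissue (TAM minus tumor) was 0.67 for Tnf (SE 0.39, limma adjusted p 0.922), -0.08 for Tnfrsf1a (SE 0.18, adjusted p 1) and -0.30 for Tnfrsf1b (SE 0.34, adjusted p 1). None of the 3 passed, and 0.144% of 12486 genes did.

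**Figure D4:**
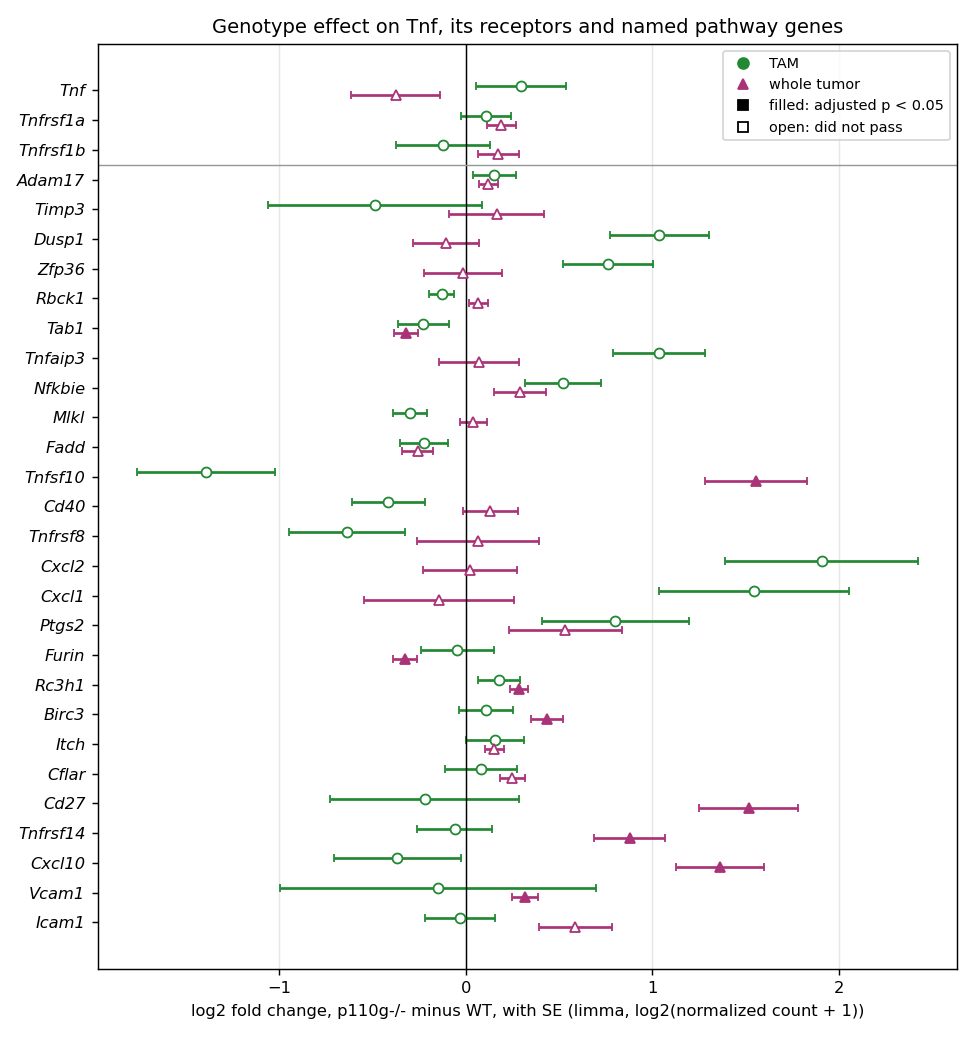
Log2 difference (p110g-/- minus WT, limma, with SE) of the 3 genes and of the named genes of the TNF pathway in TAM (circles) and whole tumors (triangles), with filled markers for an adjusted p below 0.05 without the library number as a block. Tnf is at 0.30 in TAM and -0.38 in tumors, both open, and the filled markers are all in tumors, the farthest being Tnfsf10 at 1.56.

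Across the 8 TAM libraries, log2 levels of the receptors correlated with each other at a Pearson r of 0.862, those of Tnf and Tnfrsf1a at 0.785 and those of Tnf and Tnfrsf1b at 0.636. These are descriptions over libraries that share the split by number. Of 10616 genes with a mean of at least 100, those closest to Tnfrsf1b were Tle3 (0.991), Tsc1 (0.99) and Tnfrsf21 (0.989), the latter a death-domain receptor of the same superfamily. Close to Tnfrsf1a were Baz1a (0.986) and Foxj2 (0.983). Ly6i (0.965), Fam114a1 (0.955) and Ccz1 (0.949) were closest to Tnf. Across the 6 tumors the receptors correlated at 0.865, Tnf and Tnfrsf1b at 0.334 and Tnf and Tnfrsf1a at 0.023. There, of 10811 genes, Tinagl1 (0.977), Stxbp6 (0.972) and Cuta (0.962) were closest to Tnf. Rab8b (0.991), Arl8a (0.973) and Wdr1 (0.971) were closest to Tnfrsf1a, and Slfn2 (0.993), Cfp (0.982), which encodes the complement factor properdin, and Krt80 (0.981) to Tnfrsf1b. No gene was among the 3 closest to the same member in both tissues.

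Genes that make, cut and traffic TNF gave no calls in TAM. Of 12 such genes 0 passed in limma with or without the block, and 0 had an unadjusted p under 0.05. The lowest p were those of Adam17, the enzyme that releases TNF (8534 ± 977 in WT and 9499 ± 1175 in p110g-/-, log2 difference 0.15, adjusted p 0.999), and of Timp3, its inhibitor, which was near the detection limit at 5 to 26 normalized counts. In tumors 1 of the 12 passed, with 4.35% of all genes called and 2.10% lower. Furin, a convertase that activates ADAM17, fell by 0.33 (log2, SE 0.06, limma adjusted p 0.0344), from 4834, 5343 and 5269 in WT to 3858, 4124 and 4346 in p110g-/- tumors. The median log2 difference of the 12 was 0.03 in TAM and 0.04 in tumors, against -0.012 and 0.007 over all genes tested.

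Among 16 genes that control Tnf message stability and translation, 0 passed in TAM without the block (2 had an unadjusted p under 0.05, as did 732 of all 12475 genes). With the block 2 passed, both higher in p110g-/- (1.01% of all genes were called higher with the block). Zfp36, the gene of tristetraprolin, was at 24686, 25922, 14287 and 16155 normalized counts in WT TAM and at 43543, 35150, 25784 and 30865 in p110g-/- TAM, above its same-numbered WT library in each case. Its log2 difference was 0.76 (SE 0.24, limma adjusted p 0.554, and 0.012 with the block). Dusp1, a phosphatase that turns off p38 MAP kinase, was at 8534 to 19680 in WT and 22135 to 31376 in p110g-/- TAM, with no overlap, as in 2.37% of genes (log2 difference 1.04, SE 0.26, limma adjusted p 0.36, and 0.0279 with the block). Both are also immediate-early genes. All 18 genes of an immediate-early list, these included, had a log2 difference above 0 in TAM, as did 46.8% of all genes tested. The list also holds the heat shock genes Hspa1a and Hspa1b. It was chosen with earlier results of these data known, so the count is a description only. Of the 18, 0 passed without the block, 8 had an unadjusted p under 0.05 (732 of all 12475 genes did) and 6 passed with the block, all higher (limma; 1.01% of all genes were). Their sum was 121732 to 195599 in WT and 203481 to 286783 in p110g-/- TAM, and its part in the levels of Zfp36, Dusp1 and Tnf was not tested.

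In tumors 1 of the 16 passed, where 4.35% of all genes were called and 2.25% were higher. Rc3h1, the gene of roquin-1, which promotes decay of the Tnf message, rose from 1181, 1195 and 1188 in WT to 1467, 1467 and 1411 in p110g-/- tumors (log2 difference 0.29, SE 0.05, limma adjusted p 0.0275). In tumors Zfp36 was at 9915, 15241 and 18675 in WT and 14846, 12326 and 14962 in p110g-/-, and Dusp1 at 9896 to 15995 and 9959 to 13177, both overlapping between the genotypes.

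The adaptors, ubiquitin ligases and kinases of the receptor complexes gave 0 of 20 genes past the threshold in TAM with or without the block (limma). An unadjusted p under 0.05 was reached by 0 without and 3 with the block, and by 732 and 2327 of all 12475 genes. The lowest p belonged to Rbck1, which encodes the HOIL-1 subunit of the linear ubiquitin ligase (3864 ± 206 in WT and 3530 ± 115 in p110g-/-, log2 difference -0.13, adjusted p 0.979), and to Tab1, a partner of the kinase TAK1 (log2 difference -0.23, adjusted p 0.999). In tumors 2 of 20 passed, 1 in each direction, and 16 had a log2 difference above 0, with a median of 0.10. Of all genes tested there 51.6% were above 0, with a median of 0.007. Birc3, which encodes the ubiquitin ligase cIAP2, rose from 861, 998 and 1044 in WT to 1246, 1261 and 1412 in p110g-/- tumors (log2 difference 0.44, SE 0.09, limma adjusted p 0.0379, with 2.25% of all genes called higher). Tab1 fell from 994, 1006 and 998 to 772, 866 and 769 (log2 difference -0.32, SE 0.06, limma adjusted p 0.0396, with 2.10% of all genes called lower). The calls of Furin and Tab1 were lost when the columns were scaled to equal totals (limma adjusted p 0.0577 and 0.0753).

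Of 13 brakes on receptor signalling, 11 had a log2 difference above 0 in TAM (46.8% of all genes did), with a median of 0.11, and 0 passed in limma (3 had an unadjusted p under 0.05, as did 732 of all 12475 genes). Tnfaip3, which encodes the ubiquitin-editing enzyme A20, was at 2228, 1678, 1181 and 1113 in WT TAM and at 3396, 2281, 3001 and 3740 in p110g-/- TAM, with no overlap, as in 2.37% of genes (log2 difference 1.04, SE 0.24, limma adjusted p 0.302, and 0.0659 with the block). Over libraries 1 and 2 its difference was 0.53 (limma adjusted p 1), over libraries 3 and 4, of high mitochondrial share, 1.55 (9.6e-05), and with sample quality weights 1.46 (0.00105). Nfkbie, which encodes the inhibitor IkB epsilon, was at 3320, 3060, 3335 and 3324 in WT TAM and at 3831, 3365, 5675 and 6528 in p110g-/- TAM (log2 difference 0.52, limma adjusted p 0.731). Its difference was 0.17 over libraries 1 and 2 (limma adjusted p 1), 0.87 over libraries 3 and 4 (3.3e-04) and 0.78 with the weights (0.00878). In all, 1428 genes passed in TAM over libraries 3 and 4 and 999 with the weights. The fits over libraries 1 and 2 or over 3 and 4 had n = 2 per genotype. Their p-values rest on the spread of so few libraries, which may be technical, and cannot be set beside those of the full fit. In tumors 0 of 13 passed (1 had an unadjusted p under 0.05, as did 3332 of all 12717 genes, limma). Tnfaip3 there was at 2882, 4804 and 4925 in WT and 5187, 3579 and 4244 in p110g-/-, overlapping. The lowest p was that of Itch, a ubiquitin ligase that works with A20 (log2 difference 0.15, adjusted p 0.106), followed by Nfkbie (0.29, adjusted p 0.228).

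Of 12 death-signalling genes 0 passed in either tissue (limma). In TAM 1 had an unadjusted p under 0.05 (732 of all 12475 genes did) and in tumors 5 (3332 of all 12717 did). Mlkl, which encodes the pore-forming effector of necroptosis, was at 876 to 1047 in WT and 719 to 821 in p110g-/- TAM, a log2 difference of -0.30 (SE 0.09, limma adjusted p 0.514). Fadd, the adaptor that recruits caspase-8, had log2 differences of -0.22 in TAM (adjusted p 0.999) and -0.26 in tumors (adjusted p 0.113). Cflar, which encodes the caspase-8 inhibitor FLIP, had a log2 difference of 0.25 in tumors (SE 0.07, limma adjusted p 0.0723). With sample quality weights Mlkl (limma adjusted p 0.024) and Fadd (0.0455) passed in TAM and Cflar (0.0172) in tumors. With the weights 999 genes passed in TAM and 2308 in tumors. Fadd also passed with only TAM libraries 3 and 4 of each genotype (limma adjusted p 0.0453), where 1428 genes did. Cflar passed without p110g-/- tumor 1 (0.0176), where 2001 genes did. The median of the 12 was -0.08 in TAM and 0.04 in tumors.

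Other ligands of the superfamily gave 0 of 9 tested genes past the threshold in TAM without the block (1 had an unadjusted p under 0.05, as did 732 of all 12475 genes). With the block 1 passed, which fell. The 5 not tested for low values were Tnfsf11, Fasl, Cd40lg, Lta and Cd70. Tnfsf10, which encodes the death ligand TRAIL, was at 187, 153, 87 and 125 in WT TAM and at 92, 51, 34 and 39 in p110g-/- TAM (log2 difference -1.39, SE 0.37, limma adjusted p 0.407, and 0.0144 with the block, where 1.49% of all genes were called lower). In tumors 1 of 11 tested ligands passed (2.25% of all genes were called higher), the same gene: Tnfsf10 rose from 26, 38 and 43 in WT to 74, 118 and 131 in p110g-/- tumors (log2 difference 1.56, SE 0.27, limma adjusted p 0.0293). The effect in TAM minus that in tumors was -2.95 (SE 0.518, limma adjusted p 0.0594, and 0.00052 with the block). The differences of Tnf had the other sign in each tissue, at 0.30 in TAM and -0.38 in tumors, and neither passed.

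Of the other receptors of the superfamily, 0 of 20 tested passed in TAM with or without the block (limma), and Tnfrsf25 was not tested for low values. Of the 20, 0 had an unadjusted p under 0.05 without the block and 3 with it (732 and 2327 of all 12475 genes did). The lowest p were those of Cd40 (log2 difference -0.42, adjusted p 0.917) and Tnfrsf8, which encodes CD30 (-0.64, adjusted p 0.948). In tumors 2 of 21 passed, both higher, against 2.25% of all genes. Cd27, a costimulatory receptor of lymphocytes, rose from 10, 16 and 17 in WT to 37, 44 and 45 in p110g-/- tumors (log2 difference 1.52, SE 0.26, limma adjusted p 0.0293). Tnfrsf14, which encodes the receptor HVEM, rose from 87, 88 and 106 to 130, 197 and 200 (log2 difference 0.88, SE 0.19, limma adjusted p 0.0458). The T cell markers moved alongside: 6 of 6 had a higher mean in p110g-/- tumors, 3 passed in limma, and their sum was 426 to 717 in WT and 807 to 1146 in p110g-/- tumors. Of 6 cytotoxic markers 5 had a log2 difference above 0 and 2 passed in limma, both higher, with sums of 226 to 431 and 526 to 1054. Of 3 tested carcinoma markers 3 had a log2 difference below 0 and 2 passed. The sums over that list were 13954 to 15071 and 9261 to 10625. Of all genes 2.25% were called higher and 2.10% lower. Of 9 macrophage markers 9 had a log2 difference above 0 in tumors (51.6% of all genes tested did), with a median of 0.14, and 0 passed (limma). The macrophage markers summed to 36243 to 48960 in WT and 38096 to 56836 in p110g-/- tumors, overlapping. The part of these cells in the levels of the superfamily, Tnf included, was not tested.

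Genes that TNF is known to induce gave 0 of 25 past the threshold in TAM without the block (5 had an unadjusted p under 0.05, as did 732 of all 12475 genes) and 3 with it, all higher (1.01% of all genes were). They were the neutrophil-attracting chemokines Cxcl2 (3105, 2472 and 3023 in WT TAM 2 to 4 and 12963 in WT TAM 1, against 10302 to 24433 in p110g-/- TAM) and Cxcl1 (155 to 665 against 508 to 1697) and Ptgs2, which encodes cyclooxygenase-2 (572 to 1318 against 830 to 2318). Their log2 differences were 1.91 (SE 0.52), 1.55 (SE 0.51) and 0.80 (SE 0.39), with limma adjusted p of 0.417, 0.595 and 0.946 without and 0.0172, 0.047 and 0.0132 with the block. Without WT TAM 1, Cxcl2 passed without the block too (2.45, limma adjusted p 0.019). With sample quality weights 999 genes passed in TAM without the block. Of the genes that passed in TAM only with the block, Dusp1, Zfp36, Tnfsf10, Cxcl2 and Cxcl1 were among them (limma adjusted p 0.00221, 0.00865, 0.0146, 5.5e-04 and 0.00491). These and Ptgs2 passed over libraries 3 and 4 alone (n = 2 per genotype), where 1428 genes did, and none passed over libraries 1 and 2, where 0 genes did (209 had an unadjusted p under 0.05, limma). The median of the 25 was 0.13. Many stimuli other than TNF induce these genes.

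In tumors 2 of 26 TNF-induced genes passed, both higher, against 2.25% of all genes. Cxcl10, a T cell attracting chemokine that interferons induce as well, rose from 358, 603 and 639 in WT to 1053, 1384 and 1618 in p110g-/- tumors (log2 difference 1.36, SE 0.24, limma adjusted p 0.0286). Vcam1, an adhesion molecule, rose from 3415, 3621 and 3701 to 4861, 4115 and 4431 (log2 difference 0.32, SE 0.07, limma adjusted p 0.0455). Endothelial markers moved alongside: 5 of 5 had a higher mean in p110g-/- tumors (51.6% of all genes tested had a log2 difference above 0) and 0 passed. Of the 5, 3 had an unadjusted p under 0.05 (limma), as did 3332 of all 12717 genes. Their sum was 727 to 1214 in WT and 1301 to 1485 in p110g-/- tumors. Their part in the level of Vcam1 was not tested. Icam1, another adhesion molecule, was at 423, 540 and 647 in WT and 618, 827 and 981 in p110g-/- tumors and did not pass (log2 difference 0.59, limma adjusted p 0.118). The calls in tumors rested on few libraries. Those of Furin, Rc3h1, Birc3, Tab1, Tnfsf10, Cd27, Tnfrsf14 and Vcam1 were lost when any 1 of WT tumors 1, 2 or 3 or p110g-/- tumors 2 or 3 was left out and kept without p110g-/- tumor 1. That of Cxcl10 was lost without WT tumor 2 or p110g-/- tumor 2 or 3. All 9 calls were lost when the spread was estimated over all 14 libraries, with limma adjusted p from 0.238 (Tnfsf10) to 1 (Vcam1).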

How the data were processed

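RNA-seq values of 8 TAM and 6 whole tumor libraries were taken as deposited. The submitters' processing notes name the tools Bowtie2 and DESeq and the build mm9. The counter was not given in the sources used here. What the authors deposited is a score, whole numbers that behave as gene counts scaled by a factor per library and rounded, called normalized counts here. A column headed pp in each table was not used, its meaning not being given. The step that a read is worth was estimated from the spacing of the values and recovered within 1% in 13 of 14 simulated libraries.

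Since raw counts were not what the tables held, limma 3.58.1 was run in R 4.3.3 with a trended prior on log2(normalized count + 1) in place of the planned count model, two-sided, within each table, with Benjamini-Hochberg adjustment over all genes tested and a threshold of 0.05. Fold changes on this scale are understated for low genes. Genes entered a test when at least 4 TAM or 3 tumor libraries reached 10 normalized counts (3 of each table for the difference of effects). On simulated data the test recovered 88 of 100 genes changed 2-fold and 99 of 100 changed 4-fold in TAM (12475 genes), and 91 of 100 and 100 of 100 in tumors (12717 genes). In TAM the simulated spread was the one left after the library number was fitted, and the test had no block. The real libraries carry the variation by number too (SE of Tnf 0.24 without and 0.12 with the block). The recovery in TAM therefore does not describe the power of the main test.

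The replicate numbers come from the labels, which do not say what they mark. Deviations from the group means of same-numbered TAM libraries correlated at 0.847, 0.472, 0.808 and 0.702 over 12475 genes, so the numbers were taken as pairs. WT TAM 4 correlated more with p110g-/- TAM 3 (0.777), and p110g-/- TAM 4 correlated at 0.704 with WT TAM 3. The values thus do not separate numbers 3 and 4 as pairs. The block was chosen from the same values it was then used on, and the calls with the block rest on it.

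Named are the 3 genes, and from each pathway list those past the threshold with or without the block (at most the 6 largest), or else the 2 of lowest p, and the 3 genes of highest Pearson r with each, of which 1 is not reported here. Genes, lists and tests were chosen with earlier results of these data known. Alternatives were the replicate block, other pseudocounts, filters, scalings and weights, all 14 libraries in 1 fit, and fewer libraries. The estimate of the sample quality weights stopped before its convergence tolerance in 1 of the tables, and the calls with weights rest on that. Scaling to equal totals without mitochondrial genes was added after seeing the data. Lengths and 3′ untranslated regions came from GENCODE M21, and promoters from RefSeq (GRCm38.p6), with all 3 genes matched.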

Additional observations from a re-analysis of the deposited data

How the results depend on the processing

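Over 114 values from the alternatives for the 3 genes, 0 passed in limma, and the lowest adjusted p was 0.0767 (Tnf in tumors without WT tumor 1). Directions held except that Tnfrsf1b in TAM, at -0.12, was 0.04 without WT TAM 1 and 0.01 without p110g-/- TAM 3. Leaving out 1 library gave 0.1 to 0.45 for Tnf, 0.04 to 0.21 for Tnfrsf1a and -0.28 to 0.04 for Tnfrsf1b in TAM, and -0.67 to -0.19, 0.14 to 0.27 and 0.06 to 0.25 in tumors. The replicate block changed the call of no member. The number of genes called moved more. From 14 in TAM it went to 312 with the replicate block, 88 with all 14 libraries, 999 with sample quality weights, 133 without both libraries numbered 1, 1428 in libraries 3 and 4 only, and 0 in libraries 1 and 2 only (209 at an unadjusted p under 0.05, limma), and to 3 to 40 with 1 library left out. From 553 in tumors it went to 15 with all 14 libraries and 2308 with weights, and to 29 to 2001 with 1 library left out (2001 without p110g-/- tumor 1). The causes were not tested. Equal column totals gave 393 higher and 182 lower in tumors, against 286 and 267. In tumors same-numbered libraries correlated at 0.0947, 0.0763 and 0.178, so they share only a number, and not every library correlated best with its own. A replicate block there called 759 genes, lost Vcam1 (adjusted p 0.0577) and gained Icam1 (0.0134). Of 496 values for 30 other gene results, 405 had the same outcome as the main fit, passing or not, 34 gained a call and 57 lost one. Only results that passed in the main fit could lose a call. Most of the 30 had not passed, and all that had were in tumors. Depth limits Timp3, Cd27 and Tnfrsf8, whose values in some libraries equal few reads.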
